A study of Pimephales promelas with 51 samples.

Results

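The genes described here are named for detoxification, the chemical conversion and export of drugs, pollutants and the body's own waste. They were chosen by name: the rows of the deposited count tables whose identifier was LOC120466740 (cyp3a65), gstp1, abcc2, ugdh, ces3, cyp1a, ahr2 or nr1i2. Of these 8 names 7 had a row, among 36695 genes. No row carried the identifier cyp1a. All 7 rows passed the filter on low counts in every comparison. Several of the genes had been picked because they were lower in some of the comparisons below, and for those comparisons their values are given as a description, without a test.

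The animals were fathead minnow larvae of the wild-type strain GLTED-Duluth-wt, 5 to 6 days past fertilisation. Sex was not determined. They were held for 24 h in DMSO, the solvent control, in dexamethasone or in fluticasone propionate, both synthetic corticosteroids that activate the glucocorticoid receptor. The 17 groups of 3 libraries were DMSO and 8 concentrations of each compound, labelled 0.008, 0.025, 0.08, 0.25, 0.8, 2.5, 8 and 25 µM for dexamethasone and 0.003, 0.006, 0.01, 0.019, 0.034, 0.06, 0.1 and 0.19 µM for fluticasone propionate. Measured concentrations were 0.0066 to 23.6726 µM and 0.0019 to 0.0597 µM, and groups are named here by the labelled ones. RNA came from pooled homogenates of whole larvae, and whether the 3 replicates of a group were separate exposures is not stated. P-values therefore rest on the spread between these libraries, which may be technical.

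Detoxification is usually described in stages. Phase I enzymes such as cytochromes P450 and carboxylesterases oxidise or hydrolyse a compound, phase II enzymes attach glutathione, glucuronic acid or sulfate to it, and membrane pumps then export the product. The pregnane X receptor and the aryl hydrocarbon receptor sense foreign compounds and switch many of these genes on. In mammals and zebrafish the enzymes are richest in liver and intestine, and human CYP3A enzymes also break down corticosteroids.

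Each library held 1316614 to 2097358 reads assigned to genes, with a median of 1618729. Levels are given as CPM, the reads of a gene scaled to a common library total and normalised by TMM. Differences are log2 fold changes ± their standard error (SE). A gene was called where edgeR's quasi-likelihood test gave an adjusted p under 0.05, with Benjamini-Hochberg adjustment over all genes tested. Libraries count 3′ ends, so levels are compared between samples and not between genes. Reads assigned to no gene, called reads outside genes below, made up 22.6 to 33.6% of a library. The 3 libraries with the highest share were replicate A of dexamethasone 0.8 µM (33.6%), 0.025 µM (33.1%) and 0.08 µM (32.6%). Of 7 libraries above 30%, 5 were replicate A of a dexamethasone group, 1 was another dexamethasone library and 1 a fluticasone propionate library. The share also moved with the groups. All libraries of every dexamethasone group below 25 µM lay above the DMSO maximum of 25.33%. The share was 25.77 to 27.7% at 0.008 µM, 25.4 to 33.15% at 0.025 µM and 25.7 to 32.62% at 0.08 µM. At 0.25, 0.8, 2.5 and 8 µM it was 28.79 to 31.57%, 28.78 to 33.62%, 27.4 to 28.19% and 26.24 to 30.83%. At 25 µM it was 24.3 to 26.65%. All fluticasone propionate libraries at 0.01 µM (25.34 to 26.25%) and 0.019 µM (25.4 to 32.14%) also lay above that maximum. With this share as a term of the fit, 3 of 18075 genes were called at 0.8 µM dexamethasone in place of 447, and 353 in place of 239 at 25 µM. Its part in the lower detoxification genes was not tested.

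Among the phase I genes, cyp3a65, a CYP3A cytochrome found in the liver and gut of zebrafish, had the largest difference of the 7 genes. Its 3 DMSO libraries stood at 343.8, 340.8 and 257.8 CPM. At 25 µM dexamethasone they stood at 121.6, 135.3 and 114.8 CPM, and at 8 µM at 126.3, 146.6 and 123.9 CPM. The groups did not overlap, and the mean at 25 µM, 123.9 ± 10.5 CPM (SD, n = 3), was 39.4% of the DMSO mean of 314.1 ± 48.8 CPM.

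Down the dexamethasone series the libraries of cyp3a65 held 159.2, 165.0 and 170.6 CPM at 2.5 µM and 180.9, 200.4 and 249.2 CPM at 0.8 µM. All 4 groups from 0.8 µM upwards lay wholly below the DMSO libraries, as did 11%, 9.21%, 7.35% and 7.98% of all genes at 0.8, 2.5, 8 and 25 µM. From 0.008 to 0.25 µM the group means lay between 250.5 and 259.8 CPM, and each of these groups overlapped DMSO. The log2 fold change was -0.58 ± 0.16 for 0.8 µM, -0.93 ± 0.16 for 2.5 µM, -1.27 ± 0.16 for 8 µM and -1.35 ± 0.16 for 25 µM. The slope over all 8 concentrations was -0.35 ± 0.04 log2 units per log10 unit of nominal concentration. These values chose the gene and carry no test. The difference at 0.8 µM was -0.26 when reads outside genes were a term of the fit, and that at 0.25 µM went from -0.32 ± 0.16 to 0.01.

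**Figure D1:**
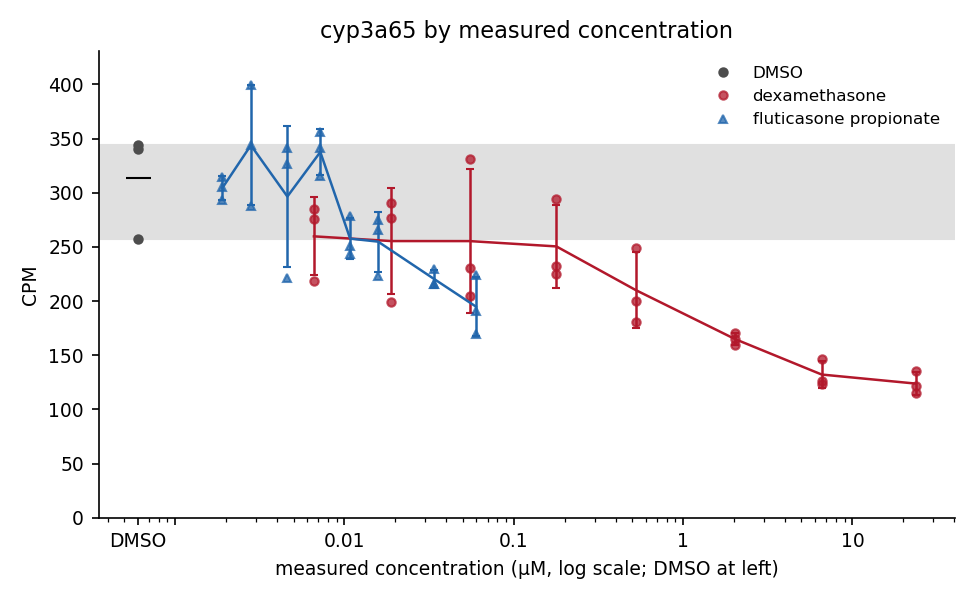
CPM of cyp3a65 in each of the 51 libraries (points) against measured concentration in µM on a log axis, with DMSO at the left; lines join group means, bars are SD (n = 3) and the grey band is the range of the DMSO libraries. The dexamethasone groups labelled 0.8 µM and above and the fluticasone propionate groups labelled 0.1 and 0.19 µM lie wholly below the band.

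With fluticasone propionate, cyp3a65 stood at 191.0, 224.0 and 170.1 CPM in the 0.19 µM libraries and at 215.6, 215.9 and 230.0 CPM at 0.1 µM. Both groups lay wholly below DMSO, as did 6.47% and 5.96% of all genes, and the other 6 overlapped it. The 0.006 and 0.019 µM groups had the highest means of all 17 groups, 343.9 ± 55.5 and 337.6 ± 20.96 CPM. The slope over the 7 groups from 0.003 to 0.1 µM used neither the DMSO nor the 0.19 µM libraries that had served to choose the gene for this compound. In that test cyp3a65 fell by 0.35 ± 0.08 log2 units per log10 unit (edgeR adjusted p = 0.0495), while 0.19% of all genes passed. The call lies at the threshold, and the adjusted p ranged from 0.00916 to 0.366 over 10 alternatives. It was 0.366, 0.101 and 0.18 with replicates A, B and C left out in turn.

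Ordered by mean, the 17 groups of cyp3a65 ran from fluticasone propionate 0.006 µM down to dexamethasone 25 µM, with DMSO the third highest. Of the 16 pairs of neighbours in that order, 15 overlapped in their libraries. The exception was dexamethasone 2.5 µM, whose lowest library at 159.2 CPM lay above the highest at 8 µM, 146.6 CPM.

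The carboxylesterase gene ces3, whose enzyme family splits esters and amides, had 44.33, 44.78 and 57.14 CPM in DMSO and 21.1, 31.6 and 27.04 CPM at 25 µM dexamethasone. The groups did not overlap. It fell by 0.89 ± 0.19 on the log2 scale (edgeR adjusted p = 0.00339). It had been chosen on fluticasone propionate libraries and on dexamethasone 0.08 µM, none of which enter this contrast. It was the gene called among the 3 that could be tested at 25 µM, where 1.32% of all genes passed and 0.642% passed as lower. Without replicate A of the 25 µM group, which held 21.1 CPM, the difference was -0.71 and was not called (adjusted p = 0.0924). Over 13 alternatives the adjusted p ranged from 0.00156 to 0.0924.

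Below 25 µM, ces3 was not called. Its log2 fold change was -0.52 ± 0.18 at 8 µM (edgeR adjusted p = 0.297), -0.64 ± 0.18 at 2.5 µM (adjusted p = 0.163) and -0.43 ± 0.18 at 0.8 µM (adjusted p = 0.187), where 0.194%, 0.133% and 2.47% of all genes were called. In each of these groups ces3 was the gene with an unadjusted p under 0.05 among the 3 that could be tested, and DESeq2 called 0. The libraries at 0.25 µM and at each higher concentration all lay below the lowest DMSO library. So did 9.75%, 11%, 9.21%, 7.35% and 7.98% of all genes at 0.25, 0.8, 2.5, 8 and 25 µM. At 0.08 µM the ces3 libraries overlapped DMSO, with a mean of 55.98 ± 5.57 CPM.

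With fluticasone propionate ces3 stood at 34.73, 40.41 and 24.85 CPM at 0.19 µM. Its 0.06, 0.1 and 0.19 µM groups lay wholly below DMSO, as did 5.72%, 5.96% and 6.47% of all genes. Its slope over all 8 concentrations, -0.51 ± 0.09 log2 units per log10 unit, chose the gene. At the low end the groups were wide, with 56.9, 40.91 and 69.01 CPM at 0.006 µM. Another carboxylesterase gene, ces2b, is in the table. Reads aligned more than once were listed apart from genes, so reads shared between such related genes may be missing from both.

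For cyp1a, the cytochrome that the aryl hydrocarbon receptor induces in fish, the reference table gives that name to LOC120484856. That row held 0 to 7 reads per library and did not pass the filter. Its DMSO libraries held 1, 3 and 1 reads and the 25 µM dexamethasone libraries 2, 3 and 2, so no difference was detectable at this depth.

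Of the phase II genes, gstp1 encodes the pi-class glutathione transferase, which joins glutathione to reactive compounds. Its DMSO libraries stood at 453.5, 473.4 and 426.5 CPM, those at 25 µM dexamethasone at 226.1, 256.6 and 224.4 CPM, and those at 0.19 µM fluticasone propionate at 323.6, 284.6 and 294.4 CPM. Neither treated group overlapped DMSO, and 7.98% and 6.47% of all genes lay wholly below it in these groups. The means were 52.2% and 66.7% of the DMSO mean, and the log2 fold changes, which chose the gene, were -0.94 ± 0.17 and -0.59 ± 0.11.

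The dexamethasone libraries of gstp1 were wholly below DMSO in the 5 groups from 0.25 µM upwards. So were 9.75%, 11%, 9.21%, 7.35% and 7.98% of all genes at 0.25, 0.8, 2.5, 8 and 25 µM. The means did not descend in step with concentration: they were 281.3 ± 66.3 CPM at 0.8 µM, 285.9 ± 40.9 at 2.5 µM and 296.0 ± 39.8 at 8 µM. Over the 7 groups from 0.008 to 8 µM, which leave out the libraries that chose it, gstp1 fell by 0.22 ± 0.05 log2 units per log10 unit (edgeR adjusted p = 0.0475). In that test 0.45% of all genes passed, and gstp1 was the gene called among 4 that could be tested. Without replicate C the slope was -0.19 (adjusted p = 0.542), and without replicate B it was -0.20 (adjusted p = 0.0858). Without the libraries above 30% of reads outside genes it was -0.22 (adjusted p = 0.115). Over 10 alternatives the adjusted p ranged from 0.000656 to 0.542.

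Libraries of 1 group differed widely for gstp1. At 0.8 µM dexamethasone they held 226.0, 354.8 and 263.3 CPM. Replicate A was the lowest library of gstp1 in 6 of 8 dexamethasone groups and of cyp3a65 and abcc2 in 5 of 8. The difference of gstp1 at 0.8 µM was -0.68 ± 0.17, and -0.33 with reads outside genes in the fit. At 0.25 µM it went from -0.28 ± 0.17 to 0.08. With fluticasone propionate gstp1 lay wholly below DMSO at 0.06, 0.1 and 0.19 µM, as did 5.72%, 5.96% and 6.47% of all genes. Its slope over all 8 concentrations, -0.39 ± 0.05, chose it.

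The gene ugdh encodes UDP-glucose dehydrogenase, which makes the UDP-glucuronic acid used for glucuronidation and for matrix polysaccharides. It had 89.23, 84.91 and 74.14 CPM in DMSO and 50.74, 44.88 and 43.85 CPM at 25 µM dexamethasone, without overlap. There 7.98% of all genes lay wholly below DMSO. Its slope over the dexamethasone series, -0.20 ± 0.04, chose it, and the log2 fold change at 25 µM was -0.83 ± 0.16. As for gstp1, the means changed little from 0.8 to 8 µM, at 51.94, 53.92 and 51.99 CPM.

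Fluticasone propionate gave ugdh values that its choice had not used, and none of them was called. The 0.19 µM libraries held 68.89, 53.11 and 49.69 CPM, all below DMSO, as was so for 6.47% of all genes. The log2 fold change of ugdh there was -0.55 ± 0.19 (edgeR adjusted p = 0.416). The slope over all 8 concentrations was -0.27 ± 0.08 (adjusted p = 0.101). At 0.006 µM the libraries of ugdh ranged from 59.05 to 109.9 CPM.

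The export pump gene abcc2 encodes the protein MRP2, which in mammals moves glutathione and glucuronide conjugates into bile. It stood at 89.23, 101.2 and 78.9 CPM in DMSO and at 51.74, 60.68 and 50.43 CPM at 25 µM dexamethasone. The groups did not overlap, where 7.98% of all genes lay wholly below DMSO. The log2 fold change of abcc2, which chose the gene, was -0.73 ± 0.15. The 4 groups from 0.8 to 25 µM had means between 54.28 and 60.88 CPM, while those at 0.025, 0.08 and 0.25 µM had means between 84.88 and 86.58 CPM. The 0.008 µM libraries, at 67.22, 72.54 and 76.1 CPM, also lay below DMSO, as did 5.43% of all genes. With reads outside genes in the fit the difference at 0.8 µM went from -0.56 ± 0.15 to -0.29, and that at 0.25 µM from -0.05 ± 0.14 to 0.23.

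Over the dexamethasone series without 25 µM, the slope of abcc2 was -0.18 ± 0.05 (edgeR adjusted p = 0.0588). It was called with DESeq2 (adjusted p = 0.0429), with measured concentration (adjusted p = 0.0496), and with reads outside genes in the fit (adjusted p = 0.0388), in a range of 0.0321 to 0.484 over 10 alternatives. Over all 8 fluticasone propionate concentrations, which had played no part in its choice, abcc2 fell by 0.26 ± 0.07 log2 units per log10 unit (edgeR adjusted p = 0.029). In that test 1.58% of all genes passed, and abcc2 was the gene called among 4 that could be tested. Without the 0.19 µM group the slope was -0.26 ± 0.08 and was not called (adjusted p = 0.213). The 0.19 µM libraries of abcc2, at 78.73, 79.67 and 55.63 CPM, overlapped DMSO.

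**Figure D2:**
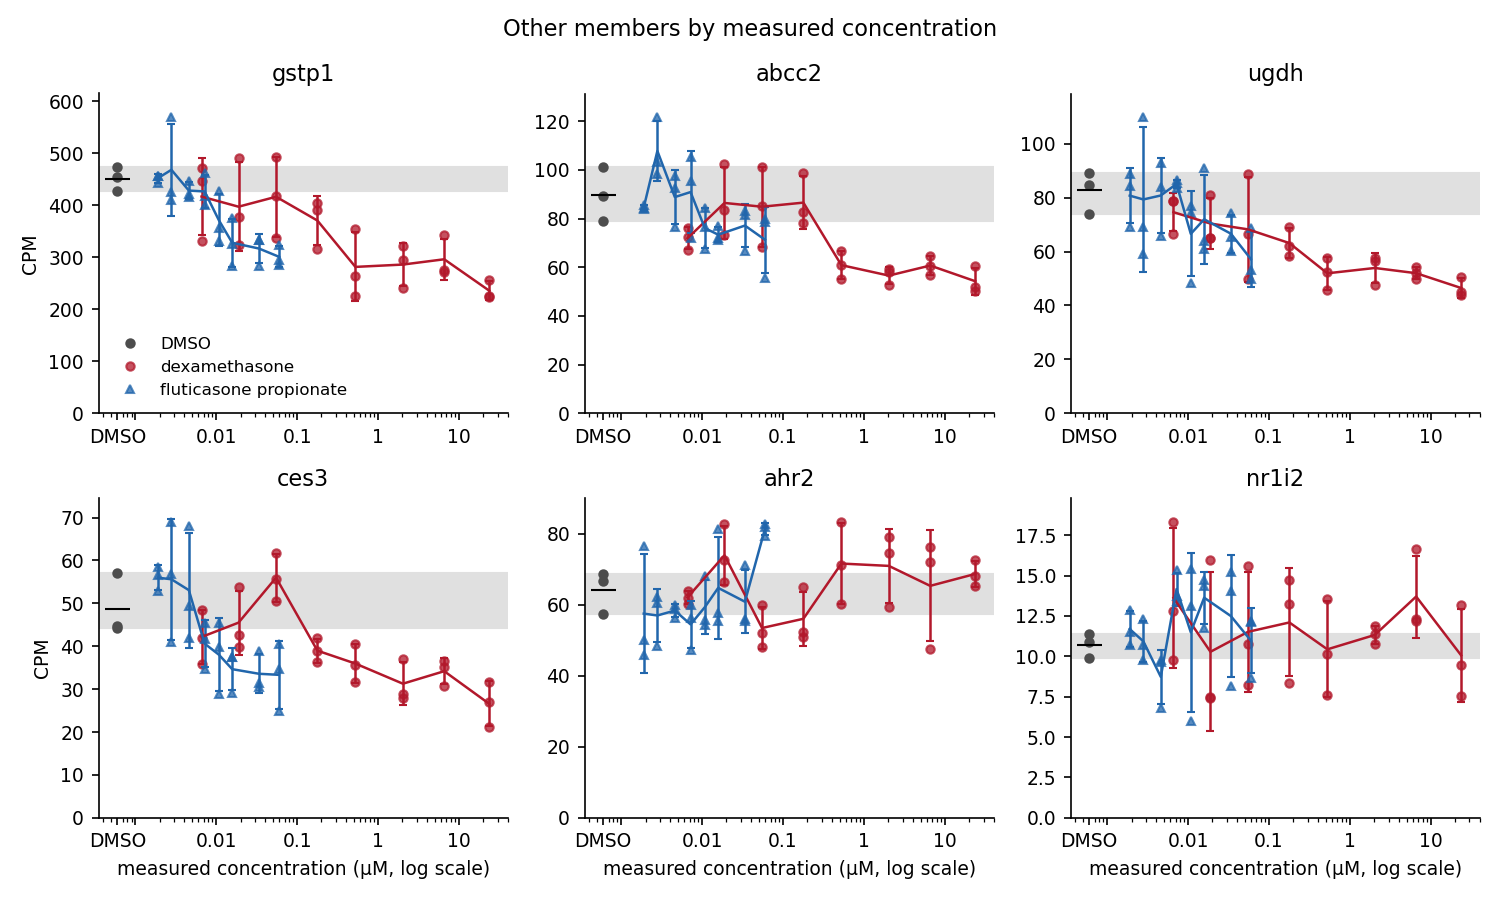
CPM of the other 6 genes in each library (points) against measured concentration in µM on a log axis, with DMSO at the left; lines join group means, bars are SD (n = 3) and grey bands are the range of the DMSO libraries. The lowest mean is that of dexamethasone 25 µM for gstp1, abcc2, ugdh and ces3, while ahr2 is highest at fluticasone propionate 0.19 µM and nr1i2 shows no common direction.

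Neither regulator gene was called against DMSO or along a series. The gene ahr2, which encodes the aryl hydrocarbon receptor that mediates dioxin toxicity in zebrafish, had 57.4, 68.63 and 66.66 CPM in DMSO and 65.31, 72.69 and 67.97 CPM at 25 µM dexamethasone. The groups overlapped, and the log2 fold change was 0.09 ± 0.16 (edgeR adjusted p = 0.914, 95% interval -0.23 to 0.41). At 0.19 µM fluticasone propionate its 3 libraries, at 79.31, 81.98 and 82.64 CPM, lay above all DMSO libraries, as did 7.08% of all genes. The difference there was 0.33 ± 0.16 and was not called (adjusted p = 0.621). The slope over all fluticasone propionate concentrations, 0.24 ± 0.07, was not called either (adjusted p = 0.0846), and without the 0.19 µM group the slope was 0.10 ± 0.09 (adjusted p = 0.796).

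The gene nr1i2 encodes the pregnane X receptor, which induces CYP3A genes in mammals and zebrafish. It was counted by only 10 to 27 reads per library. It stood at 11.37, 9.887 and 10.88 CPM in DMSO, at 7.535, 9.481 and 13.16 CPM at 25 µM dexamethasone and at 12.16, 12.12 and 8.642 CPM at 0.19 µM fluticasone propionate. Both treated groups overlapped DMSO. The log2 fold changes were -0.13 ± 0.34 (edgeR adjusted p = 0.948) and 0.02 ± 0.31 (adjusted p = 0.997). Their 95% intervals, -0.81 to 0.56 and -0.60 to 0.65, leave room for a change as large as that of abcc2 at 25 µM in the first case. Its libraries lay wholly above DMSO at 8 µM dexamethasone and at 0.019 and 0.06 µM fluticasone propionate, as did 7.86%, 5.91% and 5.26% of all genes, and wholly below at 0.01 µM, as did 4.37%. None of these was called. In the reference annotation nr1i2 overlaps the gene gsk3ba and ahr2 overlaps a long non-coding RNA. The strand setting of the counting is not given in the sources used here, so reads of the overlapping genes may not have been told apart.

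At 25 µM dexamethasone 5 of the 7 genes had all 3 libraries below all 3 DMSO libraries, where 7.98% of all genes did. At 0.19 µM fluticasone propionate these were cyp3a65, gstp1, ugdh and ces3, where 6.47% of all genes did. These shares rest mostly on genes chosen for being low in those groups. At 0.19 µM fluticasone propionate, 0.246% of all genes passed the test, and none of the 3 genes that could be tested there did. At an unadjusted p under 0.05 there were 2 of the 3, ugdh and ahr2, against 1360 of 17877 genes, and DESeq2 called 0.

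**Figure D3:**
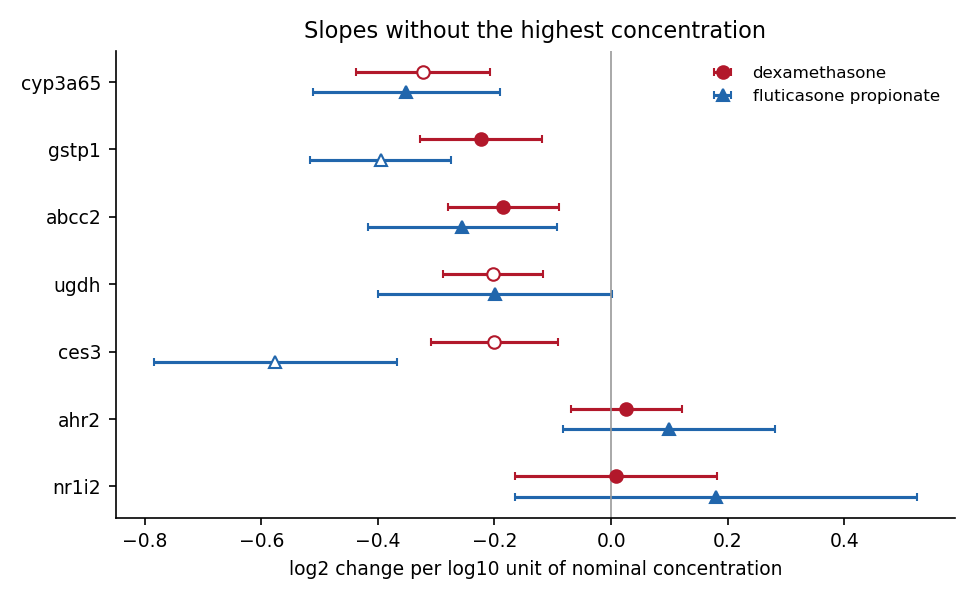
Slope of each gene in log2 units per log10 unit of nominal concentration (x axis), with 95% intervals, for 21 libraries per compound without the highest concentration and without DMSO. Filled points are slopes that can be tested and open points those that share libraries with the choice of the gene; gstp1 with dexamethasone and cyp3a65 with fluticasone propionate were called.

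Both compounds carry a fluorinated corticosteroid skeleton, and fluticasone propionate differs in bearing a propionate ester and a fluoromethyl thioester. They were compared at 3 pairs of matched measured concentration: labels 0.08 and 0.19 µM (0.055 and 0.0597 µM measured), 0.025 and 0.06 µM (0.0189 and 0.0158 µM), and 0.008 and 0.019 µM (0.0066 and 0.0072 µM). Only abcc2, ahr2 and nr1i2 could be tested in these pairs, and none was called, with 0.344%, 0% and 0% of all genes called. In the first pair ahr2 was lower with dexamethasone by a log2 difference of -0.59 ± 0.16 (edgeR adjusted p = 0.0786, 95% interval -0.91 to -0.27), with libraries at 52.09, 48.18 and 60.05 CPM against 79.31, 81.98 and 82.64 CPM. Without the filter on low counts that difference was called (adjusted p = 0.0289), in a range of 0.0289 to 0.322 over 12 alternatives. A second adjustment ran only over abcc2, ahr2 and nr1i2 in the 3 pairs. It gave that ahr2 difference an edgeR adjusted p of 0.00453, and the next lowest was 0.138, for abcc2 in the third pair. How ahr2 was picked is not recorded, so calls here rest on the adjustment over all genes. DESeq2 called 0 in any of the 3 pairs, and at an unadjusted p under 0.05 there were 1, 0 and 1 genes.

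For abcc2 the difference in the first pair was 0.27 ± 0.15 (edgeR adjusted p = 0.522, 95% interval -0.02 to 0.56). In the third pair it was -0.33 ± 0.15 (adjusted p = 0.893, 95% interval -0.62 to -0.03). For nr1i2 the first pair gave 0.09 ± 0.32 (adjusted p = 0.953, 95% interval -0.54 to 0.72). The other 4 genes share libraries with their choice in these pairs. In the first pair they were higher with dexamethasone, by 0.41 ± 0.16 for cyp3a65, 0.49 ± 0.15 for gstp1, 0.77 ± 0.19 for ces3 and 0.28 ± 0.18 for ugdh, as a description. For gstp1 it was 0.78 with reads outside genes in the fit. Without replicate B of the dexamethasone group it was 0.17 for cyp3a65 and 0.04 for ugdh, and over 12 alternatives these ranged up to 0.57 and 0.49. In the second pair cyp3a65 differed by 0.02 ± 0.16 and in the third by -0.37 ± 0.16.

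Whole larvae mix all organs, so fewer cells of a type and less RNA per cell cannot be told apart. Liver and enterocyte markers were therefore read beside these genes. All 17 liver markers and all 29 enterocyte markers with a row were detected. The summed liver markers were 6749 to 7196 CPM in DMSO, 6334 to 7479 CPM at 25 µM dexamethasone and 5845 to 7174 CPM at 0.19 µM fluticasone propionate, so at the highest concentrations the ranges overlapped. At some lower dexamethasone concentrations they did not: the sums were 6109 to 6579 CPM at 8 µM, 5519 to 5905 CPM at 2.5 µM, 5378 to 6509 CPM at 0.25 µM and 6144 to 6400 CPM at 0.008 µM, wholly below DMSO. At 0.025, 0.08 and 0.8 µM they were 5554 to 6948, 5133 to 6771 and 4604 to 6950 CPM and overlapped it. The summed enterocyte markers were 2993 to 3186 CPM in DMSO, 2837 to 3382 CPM at 25 µM dexamethasone and 2673 to 3247 CPM at 0.19 µM fluticasone propionate. They were wholly below DMSO at 0.25, 0.8, 2.5 and 8 µM dexamethasone, at 2365 to 2990, 1892 to 2751, 2578 to 2800 and 2588 to 2963 CPM. Both sums thus lay wholly below DMSO at 0.25, 2.5 and 8 µM dexamethasone. So did cyp3a65, gstp1, abcc2, ugdh and ces3 at 2.5 and 8 µM, but at 0.25 µM cyp3a65 and abcc2 overlapped DMSO. At 25 µM both sums overlapped DMSO, and the means of these 5 genes were lowest there. With fluticasone propionate the liver sum lay wholly below DMSO at 0.019 µM (5816 to 6560 CPM), where these 5 genes overlapped it. The enterocyte sum did so at 0.06 µM (2737 to 2988 CPM), as did gstp1, abcc2 and ces3.

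Single markers did move. Of 25 genes of the enterocyte list measured, 3 were called lower at 25 µM dexamethasone, where 1.32% of all genes were called and 0.642% lower. These were fabp6, an ileal bile acid binding protein, by -0.72 ± 0.13 (edgeR adjusted p = 0.000518), tm4sf4 by -0.99 ± 0.18 (adjusted p = 0.000303) and agr2 by -1.06 ± 0.24 (adjusted p = 0.00828). The gene agr2 is better known from goblet cells than from enterocytes. Of the 25, 10 had an unadjusted p under 0.05 at 25 µM, all lower, where 1826 of 18075 genes had such a p. DESeq2 called 3. Over the dexamethasone series 5 of the 25 were called lower and 0 higher, where 0.858% of all genes were called lower. At 0.19 µM fluticasone propionate, where 0.246% of all genes were called, fabp6 was called lower. Over the fluticasone propionate series 3 of the 25 were called lower and 0 higher, where 0.463% of all genes were called lower. Of 16 liver markers 0 were called at 25 µM dexamethasone by edgeR or DESeq2. There 5 had an unadjusted p under 0.05, of which 1 was lower. Over the dexamethasone series 2 liver markers were called higher and 1 lower, where 1.3% and 0.858% of all genes were. At 0.19 µM fluticasone propionate edgeR called 1, the fetuin gene ahsg1, as lower, and DESeq2 called 0. Over the fluticasone propionate series 2 of the 16 liver markers were called lower and 0 higher. There 2 of 9 lens and retina markers were also called lower and 0 higher. At 25 µM dexamethasone 3 of 9 lens and retina markers were called lower, and edgeR and DESeq2 called 0 of 12 pronephros, 10 muscle and 5 erythroid markers, with 2, 0 and 0 at an unadjusted p under 0.05. The summed erythroid markers were nevertheless wholly below DMSO (252.4 to 291.1 CPM) at 25 µM, at 208.0 to 225.8 CPM, and at 8 µM, at 150.5 to 227.3 CPM. They were so too at 0.08 µM dexamethasone, at 234.5 to 240.3 CPM. With fluticasone propionate they were so at 0.034 and 0.1 µM, at 221.6 to 241.5 and 147.1 to 239.6 CPM. Over the dexamethasone series 1 of the 5 erythroid markers was called lower, where 0.858% of all genes were. Of the 8 erythroid markers with a row, 2 were at 0. The muscle sum lay wholly below DMSO at 0.8 µM dexamethasone, and the lens and retina sum at 0.25 and 0.8 µM. With fluticasone propionate the lens and retina sum lay wholly above DMSO at 0.01 µM, and the pronephros sum at 0.003, 0.006 and 0.019 µM. At 2.5 µM dexamethasone 8 of 16 liver markers had an unadjusted p under 0.05, all lower, and edgeR and DESeq2 called 0. Of all 18075 genes 1741 had such a p there, and 0.133% were called. At 0.8 µM edgeR called 1 of 16 liver, 5 of 25 enterocyte and 2 of 10 muscle markers, where 2.47% of all genes were called. With reads outside genes in the fit, 3 of 18075 genes were called at 0.8 µM in place of 447. What part these cells have in the lower detoxification genes was not tested.

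Libraries of the same group also differed from each other, and deviations from the group mean hold none of the differences between groups. The SD of log2 CPM within groups was 0.20 for cyp3a65 and 0.20 for gstp1, larger than that of 88.2% and 87.1% of genes of like level. For abcc2 it was 0.18, larger than for 41.6% of genes of like level, and for ces3 0.23, larger than for 53.6%. Across the 51 libraries the deviations of cyp3a65 had a Pearson r of 0.651 with those of abcc2, 0.516 with gstp1, 0.389 with ugdh and 0.242 with ces3. Those of gstp1 and ugdh had an r of 0.649. The deviations of ahr2 and nr1i2 had an r with cyp3a65 of -0.057 and 0.097. These are descriptions: the libraries share their normalisation.

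The deviations of gstp1 also went with cell markers and with reads outside genes. Their r was 0.721 with the summed liver markers, 0.615 with the enterocyte markers and -0.668 with the log2 percentage of reads outside genes. It was 0.529 with muscle markers and -0.422 with pronephros markers, so the relation was not limited to liver and gut. For ugdh the values with liver markers, enterocyte markers and reads outside genes were 0.542, 0.365 and -0.417. For cyp3a65 these were 0.213, 0.262 and -0.406, and for abcc2 0.162, 0.130 and -0.271. So gstp1 was low in libraries with few liver marker reads and many reads outside genes, while the values for abcc2 were nearer zero.

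**Figure D4:**
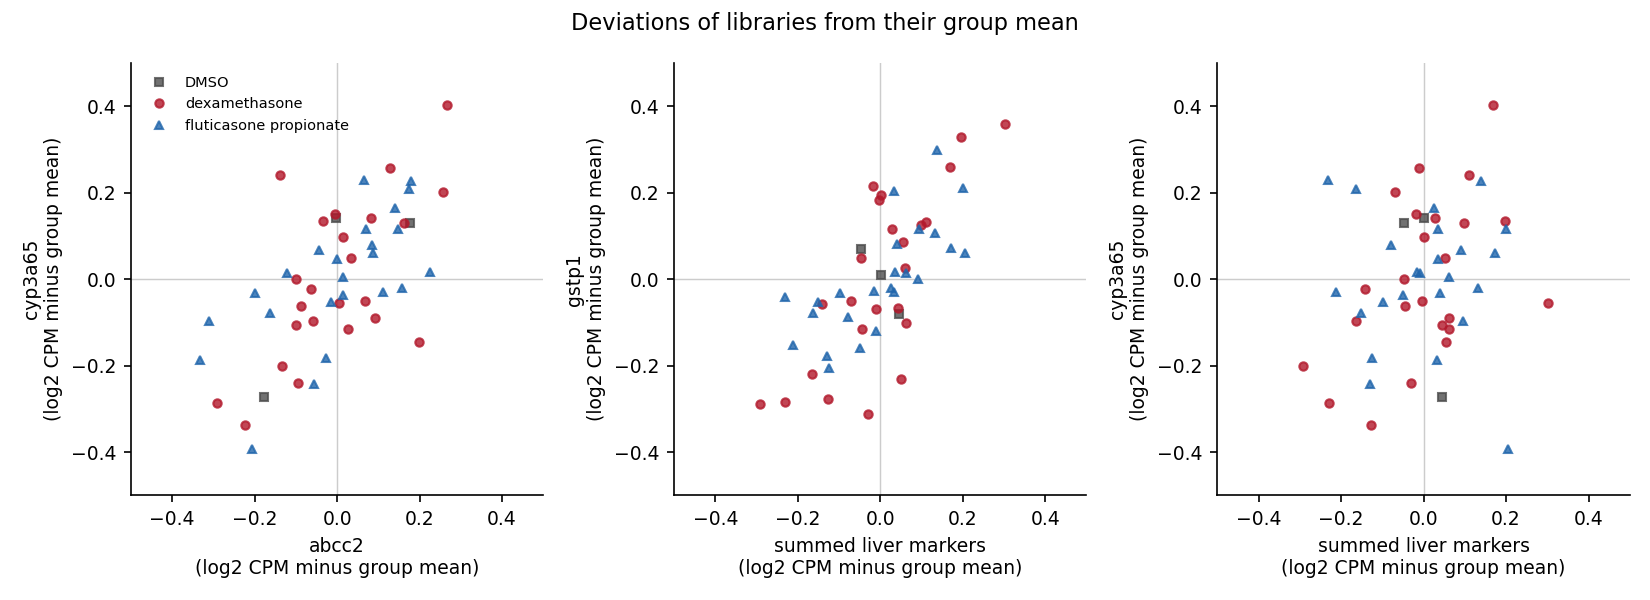
Deviation of each of the 51 libraries from its group mean in log2 CPM: cyp3a65 against abcc2 (left, r = 0.651), gstp1 against the summed liver markers (middle, r = 0.721) and cyp3a65 against the summed liver markers (right, r = 0.213). Points are libraries, by compound; the left and middle clouds slope upwards, and the right one does so little.

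Over all 51 libraries, treatment differences included, the genes whose log2 CPM was most like that of cyp3a65 among 12894 genes with a mean of at least 10 CPM were LOC120492252 (Pearson r = 0.864), abcc2 (0.845), gstp1 (0.824), mao (0.814) and hmgb1a (0.795). The first has no symbol in the reference table. It had 54.46 ± 13.5 CPM in DMSO, 18.51 ± 2.56 at 25 µM dexamethasone and 30.22 ± 5.00 at 0.19 µM fluticasone propionate. The gene mao encodes monoamine oxidase, which oxidises amines, and hmgb1a encodes a chromatin protein. Next in order was ugdh at 0.773, while ces3 was at rank 47 with 0.663. The values for ahr2 and nr1i2 were -0.371 and 0.044. Among the summed marker lists the highest was that of the erythroid markers, at 0.470.

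The wider detoxification system was described by 7 lists of enzymes, transporters and regulators. They hold 215 names, of which 122 matched a row, 7 of them the genes above. Of the 97 others measured at 25 µM dexamethasone, 2 were called higher, 4 were called lower and 91 were not called, where 0.68% of all genes were called higher and 0.642% lower. DESeq2 called 7 of the 97, and 216 of 18075 genes in all. At an unadjusted p under 0.05 there were 25 of the 97, of which 17 were lower, against 1826 of 18075 genes. The median log2 fold change of the 97 was -0.04, against 0.00 over all genes. Over the dexamethasone series, where 1.3% of all genes were called higher and 0.858% lower, 2.16% in all, 2 rose and 5 fell.

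The 4 genes called lower at 25 µM dexamethasone came from 3 lists. The microsomal glutathione transferase gene mgst3b fell from 82.35 ± 9.50 CPM (SD, n = 3) to 43.5 ± 9.51 CPM, by 0.93 ± 0.15 on the log2 scale (edgeR adjusted p = 0.000113). The monoamine oxidase gene mao fell from 99.08 ± 6.38 to 59.84 ± 4.199 CPM (adjusted p = 0.00137). The carboxylesterase gene ces2b fell from 72.4 ± 7.41 to 40.11 ± 0.39 CPM (adjusted p = 0.00148), and the sulfotransferase gene sult6b1 from 69.8 ± 12.6 to 42.15 ± 0.39 CPM (adjusted p = 0.032). All 4 also fell over the dexamethasone series, as did papss2a, which makes the sulfate donor, by 0.15 ± 0.04 log2 units per log10 unit (adjusted p = 0.0491).

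The 2 genes called higher were the nucleotide exporter gene abcc5, with 44.5 ± 3.95 CPM in DMSO and 67.94 ± 0.61 CPM at 25 µM (edgeR adjusted p = 0.0416), and the vitamin D receptor gene vdrb, with 112.2 ± 8.28 and 168.9 ± 17.4 CPM (adjusted p = 0.005). Of the same family of pumps, abcc5 was thus higher where abcc2 was lower. The other transporters with high counts, abcb4 (-0.37 ± 0.11, adjusted p = 0.0888), abcb5 (0.07 ± 0.12, adjusted p = 0.926) and abcc3 (-0.26 ± 0.18, adjusted p = 0.693), were not called.

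By list, phase I enzymes other than the cytochromes lay lowest at 25 µM dexamethasone, with 14 of 17 below zero and a median of -0.34. The largest single difference among them was that of cbr1l, a carbonyl reductase gene, which stood at 101.7 ± 21.9 CPM in DMSO and 44.57 ± 10.1 CPM and was not called (edgeR adjusted p = 0.0665). Glutathione genes had 8 of 13 below zero and a median of -0.18, and glucuronidation and sulfation genes 9 of 16 and -0.18. Transporters had 7 of 18 below zero and a median of 0.09, and regulators 13 of 27 and 0.03. Over all genes 49.4% lay below zero.

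Of 38 names of drug-metabolising cytochromes 8 matched a row, cyp3a65 included. Only 3 of the others passed the filter, cyp1b1 (0.23 ± 0.34), cyp2u1 (-0.32 ± 0.31) and cyp2ad3 (0.41 ± 0.29). None was called at 25 µM dexamethasone by edgeR or DESeq2 or at an unadjusted p under 0.05. Only 2292 of 17174 LOC identifiers had a symbol, so further cytochromes may be present without a name and are not covered here. On the list of methylation and acetylation genes 3 were measured, comta, comtb and nat10, and none was called either. They were matched by name, and whether each acts on drugs was not tested. Targets of the aryl hydrocarbon receptor gave 0 calls of 6 at both highest concentrations by either tool, with 0 at an unadjusted p under 0.05. Targets of Nrf2, the oxidative stress regulator, gave 0 calls of 15 at 25 µM dexamethasone by either tool, with 4 at an unadjusted p under 0.05. There 1.32% of all genes were called by edgeR. These 15 leave out gstp1, which is on the same list, was chosen by name and stood at -0.94 ± 0.17. Over the dexamethasone series 1 of the 15 was called lower by either tool. There 12 of 15 slopes lay below zero, and 14 of 15 without the 25 µM group, against 52.4% and 51.6% of all genes. Against DMSO, 10 of the 15 lay below zero at 25 µM and 8 at 8 µM, where 49.4% and 50.2% of all genes did.

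At 0.19 µM fluticasone propionate 0 of 95 other detoxification genes were called by edgeR or DESeq2. There edgeR called 0.246% of all genes, so the count of 0 lies near that share. Of the 95, 10 had an unadjusted p under 0.05, of which 6 were lower, against 1360 of 17877 genes with such a p. The median of the 95 was -0.08, against -0.01 over all genes. The genes called with 25 µM dexamethasone stood at -0.40 ± 0.15 for mao, -0.47 ± 0.17 for ces2b, -0.50 ± 0.21 for mgst3b, -0.50 ± 0.16 for sult6b1, 0.31 ± 0.18 for abcc5 and 0.28 ± 0.15 for vdrb. Over the fluticasone propionate series mao fell by 0.29 ± 0.06 (edgeR adjusted p = 0.00722) and sult6b1 by 0.34 ± 0.07 (adjusted p = 0.00193), where 0.463% of all genes fell. Both highest groups share the DMSO libraries, and their concentrations differ, so the values stand side by side without a comparison.

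**Figure D5:**
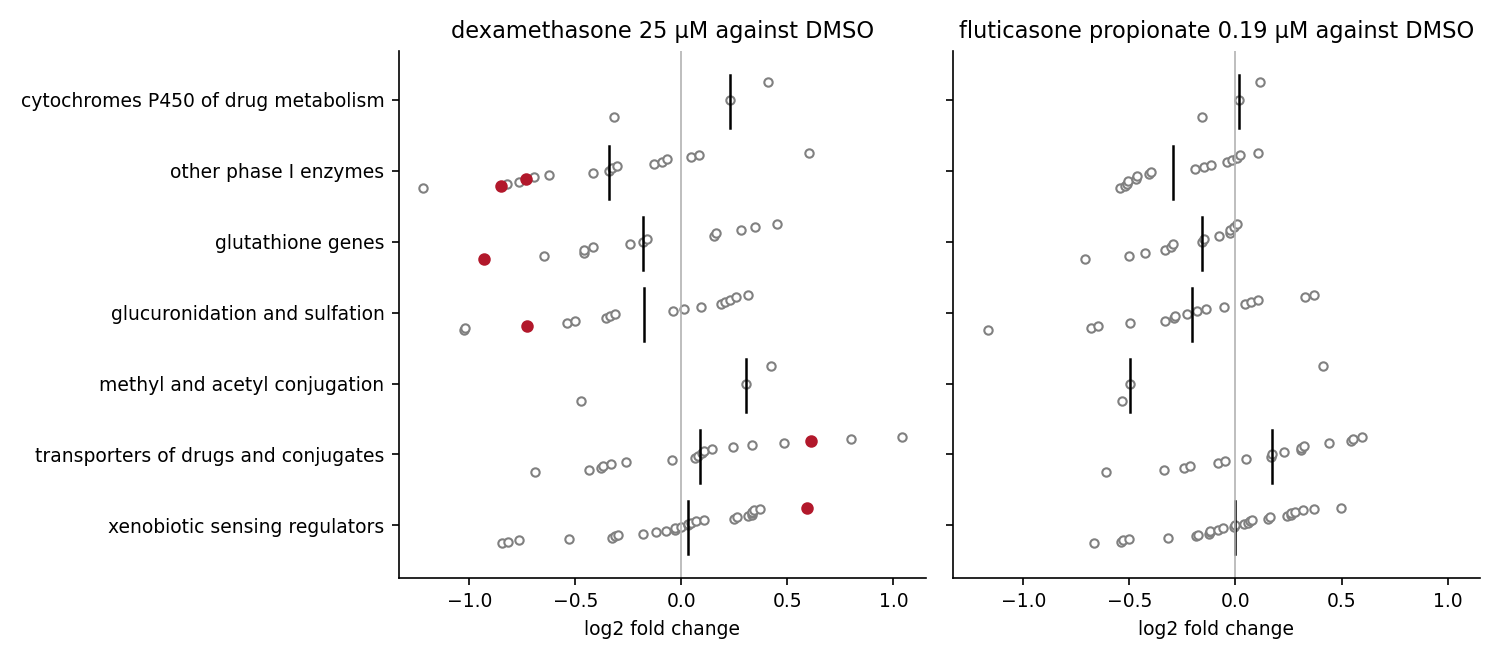
Log2 fold change against DMSO (x axis) of each measured gene of the 7 detoxification lists without the genes chosen by name, at dexamethasone 25 µM (left) and fluticasone propionate 0.19 µM (right). Filled points were called: 6 of 97 on the left, where 1.32% of all genes were, and 0 of 95 on the right, where 0.246% were. Black bars are list medians, the lowest of which on the left is that of the other phase I enzymes at -0.34.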

How the data were processed

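Per the labels' protocols, RNA of pooled whole-larva homogenates went into QuantSeq 3′ libraries carrying molecular identifiers. Tools named in the submitters' processing notes are STAR 2.7.10a and HTSeq 2.0.1, beside edgeR, MultiQC 1.12, FastQC and bcl2fastq 2.20.0. Build, strand setting and use of the identifiers were not given in the sources used here. The authors deposited raw counts per gene in 1 table per compound, and the 3 DMSO columns were identical in both. Their tables of log2 values were not used. HTSeq's rows of unassigned reads, which name no gene, entered neither library sizes nor tests. They held 22.6 to 33.6% of reads without a feature, 10.6 to 12.2% aligned more than once, 6.94 to 8.77% unaligned and 0.592 to 0.802% ambiguous. Precision is set by the 1316614 to 2097358 reads assigned to genes per library, and intervals cover the spread of these libraries.

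In R 4.3.3, edgeR 4.0.16 tested the counts by its robust quasi-likelihood test after TMM normalisation and filterByExpr with a minimum count of 10 and a minimum total of 15. The 24 libraries of a compound were fitted together with DMSO. Trends were fitted without DMSO on log10 nominal concentration, and pairs with measured concentrations within 1.25 times used 1 fit of all 51 libraries. The fit was tested on simulated counts. Names came from the files and from RefSeq's table of assembly fPimPro1.hap1.1, which gave symbols to 2292 of 17174 LOC identifiers. No sequence was used, and coordinates served only for the overlaps named for nr1i2 and ahr2.

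The genes and lists were chosen with earlier results of these data known. A comparison was tested for a gene only where it used no library of a comparison in which the gene had been picked, and how ahr2, nr1i2 and cyp1a were picked is not recorded. Genes named from the lists were those called at a highest concentration or in a full trend, up to 6 per list, with up to 3 uncalled genes of high CPM, and the text gives a choice of these. For cyp3a65 the 5 most correlated genes were named. The genes cbr1l and LOC120492252 come under these rules. Replicates were checked for duplicates: chi-square per degree of freedom was 1.47 to 3.14 in the 51 pairs within groups, above sampling noise. Alternatives were another normalisation, no filter, DESeq2 1.42.0, a replicate block, reads outside genes as a covariate (log2 percentage), only the 2 groups compared, measured concentration and leaving out libraries. The trends over all 8 concentrations were not run with libraries left out. Leaving out the 7 libraries above 30% of reads outside genes, and the alternatives for the calls of the 7 genes in the full trends, were added after seeing the data.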

Additional observations from a re-analysis of the deposited data

How the results depend on the processing

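No direction of a called result reversed under any alternative run. At 25 µM dexamethasone 1 of 3 testable genes, ces3, was called, and leaving out 1 library gave 0 to 1. At 2.5 µM the count of 0 became 1, ces3, when only the 2 groups compared were fitted. In the dexamethasone trend without 25 µM the count of 1 became 2, with abcc2 added, under the replicate block, the reads outside genes covariate, DESeq2 and measured concentration, and 0 with no filter on low counts or without the libraries above 30% of reads outside genes. Without 1 replicate letter it was 0 to 1. In the fluticasone propionate trend without 0.19 µM the count of 1 became 0 with RLE normalisation, the replicate block or the covariate, and was 0 to 0 without 1 letter. For labels 0.08 against 0.19 µM it rose from 0 to 1 with no filter. Other detoxification genes lower in the full fluticasone propionate trend numbered 2, and 4 with DESeq2. The labels tie no letter to a shared batch. Libraries of the same letter had a median r of their deviations of 0.017 with dexamethasone (lowest -0.071) and 0.026 with fluticasone propionate (lowest -0.178), against -0.007 and -0.013 for different letters, and 14 and 17 of 27 libraries were closest to their own letter. Deviations within a group cancel each other, so the value for different letters is not independent of that for the same letter. Whether libraries of a letter share something was not tested. The replicate block raised the genes called at 0.8 µM dexamethasone from 447 to 847, at 8 µM from 35 to 99, at 2.5 µM from 24 to 80 and at 0.25 µM from 3 to 69. The cause of these changes was not tested. Groups of 3 libraries, thresholds met by a narrow margin and, for nr1i2 and cyp1a, few reads limit the calls.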
